A study of Mus musculus with 8 samples.

Results

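The 8 genes described here are the constant segments of the T cell receptors and a transcription factor of gamma-delta T cells, 8 of the 20170 gene rows of a single-cell count matrix of mouse splenic T cells. Trac, Trbc1 and Trbc2 encode the constant parts of the alpha and beta chains, Trdc and Tcrg-C1, Tcrg-C2 and Tcrg-C4 those of the delta and gamma chains, and Sox13 is a transcription factor of the gamma-delta lineage. The genes were chosen by name when their SDHA-KO and WT levels and the share of cells with Trdc were already known, so genotype differences of these genes and of other gamma-delta genes, and patterns tied to Trdc, are given below as descriptions without a p-value. Transcripts were counted as UMIs (unique molecular identifiers, each standing for 1 captured transcript) and summed per library, per CD4 or CD8 class and per subset of the authors' cell annotation. Shares of cells with a UMI were taken after each cell had been reduced at random to 5000 UMIs, so that deep and shallow cells could be compared. All 8 genes passed the low-count filter in both classes, although both unstimulated WT libraries held 0 UMIs of Sox13.

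The libraries fall into 4 groups of 2 replicates, WT and SDHA-KO cells either left unstimulated or stimulated. SDHA-KO mice carry floxed Sdha alleles (Sdha fl/fl) and CD4-Cre, a Cre recombinase driven by the Cd4 promoter, which becomes active in thymocytes of the alpha-beta lineage; WT donors of the study's transplant experiments were Sdha fl/fl, while the labels of these libraries say only WT. T cells were enriched from spleens of mice aged 8 to 12 weeks on a C57BL/6 background, and stimulated cells received 5 μg/mL anti-CD3ε and 2.5 μg/mL anti-CD28 for 48 hours, while unstimulated cells were cultured without them. Nothing in the labels says that replicates came from different mice, so the p-values measure the spread between these libraries, which may be technical.

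The libraries held 12846 cells and from 10947009 to 51398728 UMIs each, and 23 barcodes occurred in more than 1 library. Median depth per class was 7055 to 10446 UMIs per cell before stimulation, 13152 to 14753 in stimulated WT and 23669 to 30662 in stimulated SDHA-KO. Stimulated WT cells stood apart by a median of 14.9% to 19.0% mitochondrial UMIs, against 1.77% to 4.24% in the other groups. Sdha, the targeted gene, was lower in SDHA-KO in each state and class: its log2 fold change was −1.02 in unstimulated and −1.47 in stimulated CD4-class cells (adjusted p = 8.55e-05 and 9.97e-08, edgeR quasi-likelihood test), and −1.29 in unstimulated and −0.54 in stimulated CD8-class cells (adjusted p = 9.81e-05 and 8.73e-05). The CD8 class of stimulated SDHA-KO replicate 1 also held 251 CPM (UMIs scaled to a common library total) of 5 summed B cell markers, against 10.4 to 24.999 CPM in the CD8 class of the other libraries. Values that this library could move are therefore also given for replicate 2.

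A T cell carries either an alpha-beta or a gamma-delta receptor, and both are joined to the CD3 chains at the surface. Trdc lies within the alpha chain locus, between the variable segments and Trac, and rearrangement of the alpha chain removes it from that chromosome. Most gamma-delta T cells carry neither CD4 nor CD8αβ, and in the spleen they are a small part of all T cells.

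The 7 receptor genes lie on 3 chromosomes of the mm10 build. Trdc (chr14:54142851-54148868) and Trac (chr14:54220521-54224206) are on the plus strand, as are Trbc1 (chr6:41538218-41539881), Trbc2 (chr6:41546730-41548352), Tcrg-C1 (chr13:19214103-19217024) and Tcrg-C4 (chr13:19344558-19352756), while Tcrg-C2 (chr13:19304649-19307551) is on the minus strand. Because the paralogues are alike, 60 bases of the first constant exon are shown for each family from the GENCODE transcripts of this build, with capitals at the positions at which members of a family differ.
Trbc1, chr6:41538447-41538506: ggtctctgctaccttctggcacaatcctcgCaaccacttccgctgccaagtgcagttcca
Trbc2, chr6:41546959-41547018: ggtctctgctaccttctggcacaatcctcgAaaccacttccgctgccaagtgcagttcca
Tcrg-C1, chr13:19214246-19214305: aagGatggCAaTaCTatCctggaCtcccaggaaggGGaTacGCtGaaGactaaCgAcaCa
Tcrg-C2, chr13:19307349-19307408 (minus strand): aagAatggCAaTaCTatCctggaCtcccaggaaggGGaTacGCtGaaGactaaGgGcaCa
Tcrg-C4, chr13:19344701-19344760: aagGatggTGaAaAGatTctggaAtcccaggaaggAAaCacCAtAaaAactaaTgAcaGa
The beta pair differed at 1 of 375 bases of exon 1 (99.7% identity), but the last 400 bases of their transcripts, from which a 3′ assay mostly reads, shared 0 of 351 windows of 50 bases. Tcrg-C1 and Tcrg-C2 differed at 9 of 330 bases of exon 1 and shared 82 of these 351 end windows (23.4%), so reads can be split between them or dropped, and their separate levels are uncertain. Tcrg-C4 shared 0 end windows with either and was 82.1% and 81.5% identical to them in exon 1. The delta and alpha constant exons, shown by their first 60 bases, are not paralogues of this kind.
Trdc, chr14:54142851-54142910: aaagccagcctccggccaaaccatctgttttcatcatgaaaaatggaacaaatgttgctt
Trac, chr14:54220521-54220580: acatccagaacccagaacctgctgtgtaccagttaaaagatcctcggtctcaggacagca

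The gamma-delta constant genes were higher in SDHA-KO than in WT libraries, most widely so in the CD8 class after stimulation, and the alpha-beta constant genes were lower in stimulated than in unstimulated libraries. In summed UMIs, fewer cells of a type and less RNA per cell cannot be told apart. Levels are given as TMM-scaled CPM, that is CPM after scaling of library composition, and differences as log2 fold changes (log2FC) with their standard error.

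**Figure D1:**
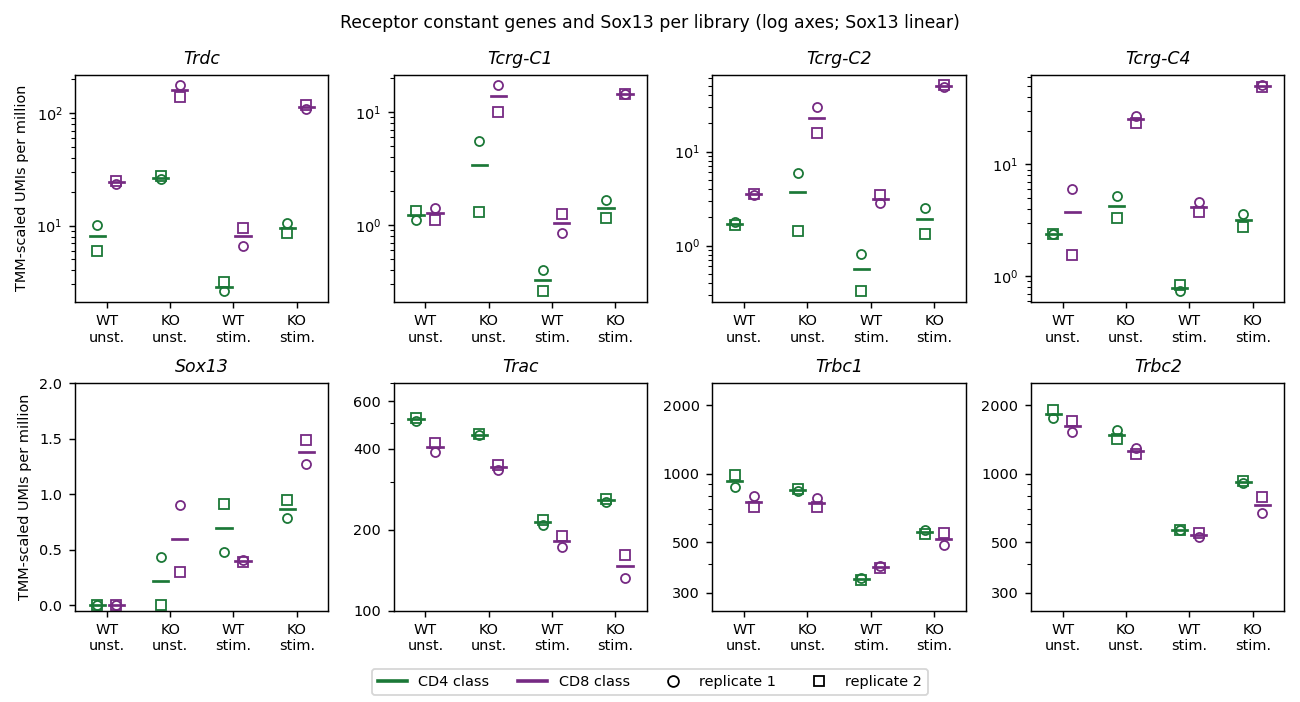
Level of each gene in TMM-scaled CPM, by group, on log axes except for Sox13. Points are libraries (circle replicate 1, square replicate 2), bars are group means and colors are the CD4 and CD8 classes. In the CD8 class the 4 gamma-delta constant genes are higher in all 4 SDHA-KO libraries than in all 4 WT libraries, an order that was not counted over all genes.

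Trdc stood at 23.4 and 25.2 CPM in the CD8 class of unstimulated WT, at 179 and 140.0 CPM in unstimulated SDHA-KO, at 6.56 and 9.46 CPM in stimulated WT and at 109.8 and 119.3 CPM in stimulated SDHA-KO. Every SDHA-KO library lay above every WT library. The log2FC of SDHA-KO over WT was 2.71 (SE 0.18) before and 3.83 (SE 0.15) after stimulation. In the CD4 class Trdc was lower than in the CD8 class in every group, at 10.1 and 5.99 CPM in unstimulated WT, 26.0 and 27.5 CPM in unstimulated SDHA-KO, 2.59 and 3.15 CPM in stimulated WT and 10.6 and 8.55 CPM in stimulated SDHA-KO. There the genotypes did not overlap within a state, with a log2FC of 1.74 (SE 0.21) before and 1.73 (SE 0.19) after stimulation. In neither class was the share of all genes without such an overlap counted.

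The gamma constant genes of the CD8 class were also higher in SDHA-KO than in WT in each state. Unlike Trdc, Tcrg-C2 and Tcrg-C4 were highest in stimulated SDHA-KO. Tcrg-C4 of the CD8 class was at 5.998 and 1.56 CPM in unstimulated WT, 27.3 and 23.7 CPM in unstimulated SDHA-KO, 4.66 and 3.74 CPM in stimulated WT and 51.5 and 48.8 CPM in stimulated SDHA-KO. Tcrg-C2 was at 3.43 and 3.57, 30.0 and 15.7, 2.84 and 3.46, and 48.5 and 51.3 CPM in the same order. Tcrg-C1 was the lowest of the 3, at 1.43 and 1.12, 17.4 and 10.1, 0.851 and 1.25, and 14.5 and 14.5 CPM. None of these 3 genes overlapped between genotypes in the CD8 class. How many of all genes do the same was not counted, while edgeR called 0.947% of genes between genotypes before and 50.4% after stimulation. The log2FC was 3.44, 2.70 and 2.85 for Tcrg-C1, Tcrg-C2 and Tcrg-C4 before stimulation and 3.77, 3.98 and 3.58 after it. All 3 of the CD4 class stayed at or below 5.97 CPM, and after stimulation their log2FC was 2.08, 1.76 and 1.99. Before stimulation, Tcrg-C1 and Tcrg-C2 of the CD4 class overlapped between genotypes, with 5.54 and 5.97 CPM in SDHA-KO replicate 1 but 1.32 and 1.42 CPM in replicate 2. The CD4 class of that replicate 1 also held 63.7 CPM of B cell markers and 4.59 CPM of 4 summed NK cell markers, against 5.90 to 6.87 and 0.893 to 1.33 CPM in the other unstimulated libraries, and their part in these values was not tested.

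Sox13 was near the limit of detection throughout. The unstimulated WT libraries held 0 UMIs in either class, which allows up to 0.214 CPM in the CD4 class and 0.314 CPM in the CD8 class (3 UMIs over the group, without TMM scaling). Unstimulated SDHA-KO libraries held 4 and 0 UMIs in the CD4 class and 3 and 1 in the CD8 class. After stimulation the CD8 class held 10 and 10 UMIs in WT and 27 and 24 in SDHA-KO (log2FC 1.76, SE 0.48), and the CD4 class 13 and 28 in WT and 24 and 35 in SDHA-KO (log2FC 0.31, SE 0.56).

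The alpha-beta constant genes were the abundant members. Trac in the CD8 class was at 389.9 and 418.7 CPM in unstimulated WT, 333 and 348 CPM in unstimulated SDHA-KO, 173 and 189 CPM in stimulated WT and 132 and 160.3 CPM in stimulated SDHA-KO. It was lower in SDHA-KO in each state, with a log2FC of −0.25 (SE 0.10) and −0.31 (SE 0.09). The second of these turned to 0.34 among cells without a Trdc UMI and to 0.01 among cells with a Cd8a or Cd8b1 and no Cd4 UMI, and it was −0.19 without stimulated SDHA-KO replicate 1 and −0.26 without stimulated WT replicate 2, both no longer called. In stimulated CD4-class cells Trac was instead higher in SDHA-KO, at 254 and 259.6 CPM against 209 and 218 CPM (log2FC 0.27, SE 0.07), and 0.25 and no longer called without stimulated WT replicate 1. Among cells under 10% mitochondrial UMIs this difference was 0.09.

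Both beta constant genes were higher in SDHA-KO than in WT after stimulation, in both classes. Trbc1 of the CD4 class was at 349 and 341 CPM in stimulated WT and 563 and 542 CPM in stimulated SDHA-KO (log2FC 0.68, SE 0.08), and Trbc2 at 565.7 and 565.8 CPM against 909.8 and 931 CPM (log2FC 0.70, SE 0.07). For the CD8 class the log2FC was 0.41 (SE 0.08) for Trbc1 and 0.44 (SE 0.09) for Trbc2. Before stimulation it was −0.13 and −0.30 in the CD4 class and −0.02 and −0.36 in the CD8 class for Trbc1 and Trbc2.

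The edgeR fit called 124 of 13095 genes (0.947%) in the unstimulated CD8 class between genotypes, 0.283% of all genes as higher, and 4 of the 8 members as higher (Trdc, Tcrg-C1, Tcrg-C2 and Tcrg-C4). In the stimulated CD8 class it called 50.4% of genes, 26.8% as higher, and all 8 members, 7 as higher and Trac as lower. In the unstimulated CD4 class it called 1.1% of genes, 0.526% as higher, and Trdc as higher, and in the stimulated CD4 class 43.2% of genes, 22.7% as higher, and 7 members as higher, all but Sox13. These genotype contrasts were known when the members were chosen, so the counts are printed beside their background and carry no weight. The unstimulated call of Tcrg-C1 and Tcrg-C2 in the CD8 class was lost without either unstimulated WT library (log2FC 3.63 and 2.69 without replicate 1, 3.26 and 2.74 without replicate 2), and Tcrg-C4 was 2.75 and no longer called without unstimulated SDHA-KO replicate 1, 4.04 without unstimulated WT replicate 1 and 2.09 without unstimulated WT replicate 2. Trdc of the unstimulated CD4 class was 1.41 and no longer called without unstimulated WT replicate 2. In the stimulated CD4 class Tcrg-C1 was no longer called without SDHA-KO replicate 1 (1.82), WT replicate 1 (2.42) or WT replicate 2 (1.80), and Tcrg-C2 without SDHA-KO replicate 1 (1.26), WT replicate 2 (1.25) or either unstimulated WT library (1.77 in each case), and it was 2.54 without WT replicate 1. Another scaling moved the balance of calls: in the unstimulated classes 29.8% of the CD8 calls and 47.8% of the CD4 calls were higher in SDHA-KO, against 73.0% of CD8 calls without a composition factor and 37.6% of CD4 calls with RLE size factors.

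Over all T cells, without classes, 3 members were called between unstimulated genotypes (1.75% of 15262 genes), 6 between stimulated genotypes (47.2%), 5 between states in WT (68.9%), 7 between states in SDHA-KO (71.1%) and 5 for the change of the SDHA-KO effect from state to state (27%). Without a composition factor the higher share of all calls moved from 38.2% to 67.5% between unstimulated genotypes, from 53.7% to 69.4% between states in WT and from 57.7% to 41.3% for the difference between states.

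Stimulation against no stimulation within a genotype did not choose the members and was tested, except for the delta and gamma genes in SDHA-KO, whose high levels were known, and for Sox13. The alpha-beta constant genes fell in both classes of both genotypes. In WT CD4-class cells, where the fit called 66.3% of genes, Trac fell by 1.27 on the log2 scale (SE 0.07, adjusted p = 1.96e-08, edgeR), Trbc1 by 1.43 (SE 0.08, adjusted p = 2.12e-08) and Trbc2 by 1.70 (SE 0.07, adjusted p = 5.08e-09). In SDHA-KO CD4-class cells, with 69.8% of genes called, the log2FC of Trac, Trbc1 and Trbc2 was −0.81, −0.62 and −0.69 (edgeR adjusted p = 6.44e-07, 1.85e-05 and 5.78e-06). In the CD8 class, with 65.7% of genes called in WT and 68.2% in SDHA-KO, the log2FC of Trac, Trbc1 and Trbc2 was −1.16, −0.96 and −1.59 in WT (edgeR adjusted p = 8.52e-07, 1.55e-06 and 2.86e-08) and −1.22, −0.53 and −0.79 in SDHA-KO (edgeR adjusted p = 5.76e-07, 0.00018 and 8.68e-06). In each of these 4 comparisons both stimulated libraries lay below both unstimulated ones, an order that was not counted over all genes.

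The delta and gamma constant genes did not move together with stimulation. Trdc fell in WT, by 1.47 in the CD4 class (SE 0.24, adjusted p = 0.000252, edgeR) and by 1.60 in the CD8 class (SE 0.21, adjusted p = 3.57e-05, edgeR). In SDHA-KO, where Trdc levels belong to the known pattern and are not tested, its log2FC was −1.48 in the CD4 class and −0.48 in the CD8 class, the latter −0.27 without unstimulated replicate 1 and −0.19 without a composition factor. In the SDHA-KO CD8 class the log2FC of Tcrg-C2, Tcrg-C4 and Tcrg-C1 was 1.13 (SE 0.20), 0.98 (SE 0.20) and 0.08 (SE 0.23). In WT the CD8-class values of Tcrg-C1, Tcrg-C2 and Tcrg-C4 were −0.25, −0.15 and 0.25 (edgeR adjusted p = 0.68, 0.75 and 0.58), the last becoming 1.44 and called without unstimulated WT replicate 1.

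In WT CD4-class cells Tcrg-C4 fell by 1.60 (SE 0.37, edgeR adjusted p = 0.00266) and Tcrg-C1 by 1.90 (SE 0.77, edgeR adjusted p = 0.0477), from 16 to 19 UMIs over libraries that grew from 14054301 to 54370766 UMIs. The call of Tcrg-C1 was lost without any 1 of the 4 WT libraries, at log2FC of −2.25 and −1.64 without stimulated and −1.999 and −1.74 without unstimulated replicates 1 and 2. Tcrg-C2 had a log2FC of −1.61 (edgeR adjusted p = 0.0847), and it was called without stimulated WT replicate 1 (−2.40) or either unstimulated SDHA-KO library (−1.59). In SDHA-KO CD4-class cells the log2FC was −1.26 (SE 0.52) for Tcrg-C1, −0.93 (SE 0.56) for Tcrg-C2 and −0.43 (SE 0.28) for Tcrg-C4, and that of Tcrg-C1 turned to 0.11 without unstimulated SDHA-KO replicate 1.

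Sox13 went from 0 UMIs in unstimulated WT to 41 UMIs in stimulated WT of the CD4 class and to 20 UMIs in the CD8 class, over libraries that were also deeper. Since it passed the low-count filter only through the groups in which it was detected, no p is given. In SDHA-KO it went from 4 to 59 UMIs in the CD4 class (log2FC 2.05, SE 0.87) and from 4 to 51 UMIs in the CD8 class (log2FC 1.19, SE 0.69). All 4 unstimulated UMIs of the SDHA-KO CD4 class came from replicate 1.

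The change with stimulation differed between genotypes for several members, with a smaller decrease of the beta constant genes in SDHA-KO in both classes. For the change of the SDHA-KO effect from state to state, 21.4% of genes were called in the CD4 class and 23.8% in the CD8 class, with 3 members in each, Trac, Trbc1 and Trbc2 in the CD4 class and Trdc, Trbc1 and Trbc2 in the CD8 class. This contrast contains the known genotype differences, so the members' values are given without p. The difference in the CD4 class was 0.46 (SE 0.09) for Trac, 0.81 (SE 0.11) for Trbc1 and 1.00 (SE 0.10) for Trbc2, and in the CD8 class −0.06 (SE 0.14), 0.43 (SE 0.12) and 0.80 (SE 0.12). Trdc of the CD8 class differed by 1.12 (SE 0.24) between states and Trdc of the CD4 class by −0.01 (SE 0.35). Trac of the CD4 class was 0.28 and no longer called among cells under 10% mitochondrial UMIs. Trdc of the CD8 class was 1.06 and no longer called without unstimulated WT replicate 2, and Trbc1 of the CD8 class was no longer called without any 1 of 5 libraries, with values of 0.33 to 0.43. Tcrg-C4 of the CD4 class became 1.53 and called without unstimulated SDHA-KO replicate 1, Tcrg-C2 of the CD8 class 1.81 and called without that library, and Tcrg-C4 of the CD8 class, at 0.73, was 1.49 and called without unstimulated WT replicate 2 and turned to −0.46 without unstimulated WT replicate 1. Of these calls 56.9% in the CD8 class were higher, and 32.7% without a composition factor. Between states, the higher share of calls was 54.6% and 52.4% in the CD4 class of WT and SDHA-KO and 54.0% and 54.6% in the CD8 class, and without a composition factor 65.4%, 62.8%, 75.6% and 66.3%, where the median log2FC of all genes was then up to 0.57.

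At equal depth the delta constant gene was found in a large part of the CD8-class cells of stimulated SDHA-KO and in fewer cells elsewhere. Trdc had a UMI in 2.67% and 2.91% of CD8-class cells of unstimulated WT, 15.9% and 13.1% of unstimulated SDHA-KO, 2.62% and 3.25% of stimulated WT and 41.4% and 40.5% of stimulated SDHA-KO. The mean of stimulated SDHA-KO was 41.0% ± 0.642 (SD, n = 2), against 2.93% ± 0.445 in stimulated WT. The stimulated SDHA-KO shares rest on 210 of 507 cells (95% Wilson interval 37.2% to 45.8%) and 158 of 390 cells (35.8% to 45.5%), intervals that cover counting error only. CD4-class shares were 2.52% and 2.14%, 5.28% and 6.15%, 1.07% and 1.48%, and 3.67% and 2.84% in the same order. With 2 libraries against 2, an exact permutation test cannot go below p = 0.33. Between 2 and 99 cells per library and class had fewer than 5000 UMIs and were left out.

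Trac of the CD8 class was found least often where Trdc was found most often. It was detected in 73.6% and 74.0% of CD8-class cells of unstimulated WT, 67.9% and 70.9% of unstimulated SDHA-KO, 60.4% and 61.4% of stimulated WT and 42.2% and 49.0% of stimulated SDHA-KO. Its CD4-class shares were 84.3% and 84.4%, 80.4% and 81.9%, 60.9% and 62.8%, and 66.8% and 68.8%. Both stimulated SDHA-KO values thus lay below those of stimulated WT in the CD8 class and above them in the CD4 class. Trbc2 was found in at least 80.9% of cells of every library and class, Trbc1 in 53.0% to 66.0%, and Sox13 in at most 1.54%.

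**Figure D2:**
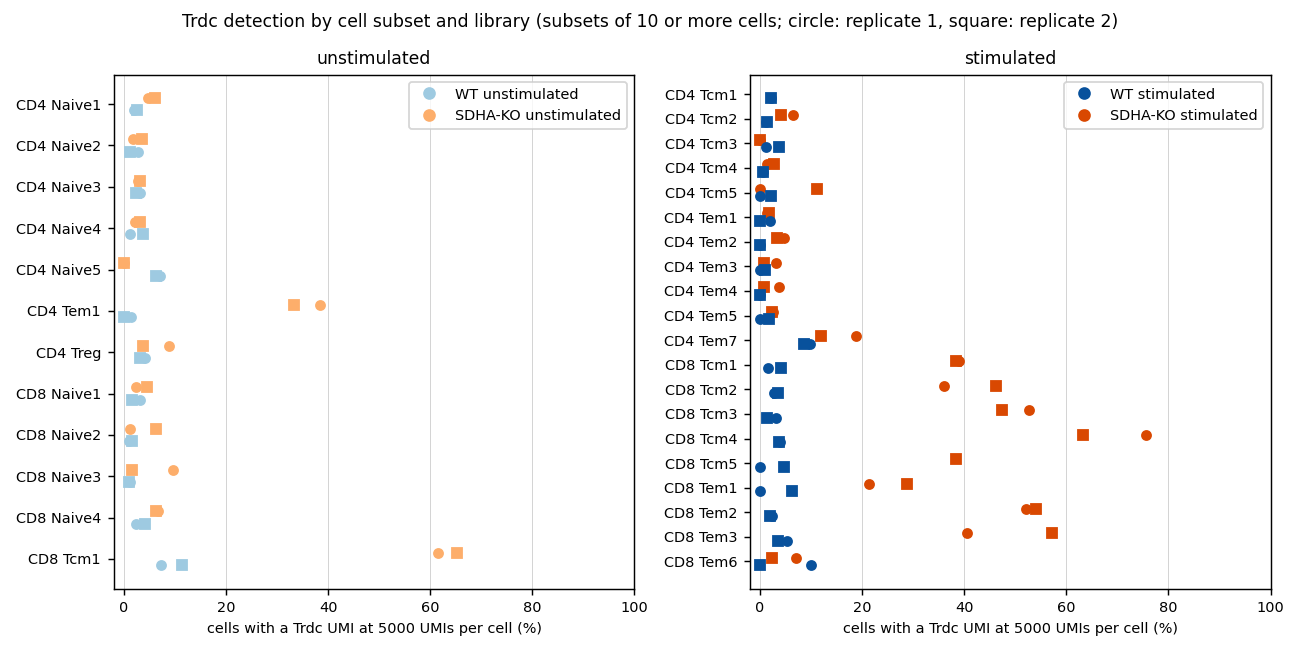
Percentage of cells with a Trdc UMI at 5000 UMIs per cell, for each annotated subset with 10 or more cells, in unstimulated (left) and stimulated (right) libraries. Each point is 1 library (circle replicate 1, square replicate 2), lighter or darker blue for WT and orange for SDHA-KO. The unstimulated SDHA-KO points stand apart in CD8 Tcm1 and CD4 Tem1, and the stimulated SDHA-KO points in every CD8 subset but Tem6.

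Before stimulation most Trdc of the SDHA-KO libraries sat in a single central memory subset. CD8 Tcm1 held 578 and 697 CPM of Trdc in unstimulated SDHA-KO, which was 62.2% and 51.2% of all Trdc UMIs of those libraries, and Trdc was detected in 61.5% and 65.3% of its cells. In unstimulated WT the same subset held 71.2 and 82.8 CPM and 7.27% and 11.3% of cells with Trdc, 32.4% and 35.3% of the libraries' Trdc UMIs. Trac was lower in this subset in SDHA-KO, at 200.2 and 173 CPM against 385 and 437 CPM in WT. CD4 Tem1, an effector memory subset, held 172 and 196 CPM of Trdc in unstimulated SDHA-KO, with 38.5% and 33.3% of cells, against 2 UMIs (3.098 CPM) and 0 UMIs in WT.

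Treg cells, which carry alpha-beta receptors, served as a background level. Trdc was detected in 4.23% and 3.08% of unstimulated WT Treg cells and in 8.82% and 3.70% of SDHA-KO Treg cells. The naive subsets of unstimulated SDHA-KO ranged from 0% to 6.03% in the CD4 class and from 1.25% to 9.52% in the CD8 class, and the highest, CD8 Naive3, stood at 9.52% in replicate 1 and 1.61% in replicate 2. The WT shares of both classes, 1.07% to 3.25%, and the CD4-class shares of SDHA-KO, 2.84% to 6.15%, lay within or below the range of the Treg shares of their genotype. These class shares include stimulated libraries, while the Treg shares come from unstimulated libraries only, and the part of free RNA was not tested. The SDHA-KO range was wide, and Treg cells of its replicate 2 (3.70%) lay below the CD4 class of that library (6.15%). No cells of the stimulated libraries were annotated as Treg.

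After stimulation Trdc was spread over nearly the whole CD8 class of SDHA-KO. The shares of cells with Trdc were 75.6% and 63.2% in Tcm4, 52.0% and 54.0% in Tem2, 52.6% and 47.4% in Tcm3, 40.6% and 57.1% in Tem3, 36.0% and 46.2% in Tcm2 and 21.3% and 28.8% in Tem1. Stimulated WT cells of these 6 subsets stood at 0% to 6.25%. Tem6 was the exception, with 6.98% and 2.27% of SDHA-KO cells, and its Trac level was 291 and 277 CPM against 327 and 336 CPM in WT. In Tcm4, the subset with the highest Trdc share, Trac was at 41.5 and 109 CPM in SDHA-KO and at 284 and 283 CPM in WT. In the stimulated CD4 class Tem7 held the highest Trdc level in both genotypes, at 73.0 and 91.2 CPM in SDHA-KO and 51.7 and 201.7 CPM in WT. Since all genes can have entered the authors' clustering, these subset values describe where the transcripts sat and are not tested.

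Detection of Trdc went with a lower detection of Trac in CD8-class cells of SDHA-KO. In stimulated SDHA-KO, Trac was found in 24.8% and 26.6% of Trdc cells but in 54.5% and 64.2% of cells without Trdc, all at 5000 UMIs. Before stimulation the values were 24.0% and 37.0% against 76.2% and 76.0%. In stimulated WT, with only 22 and 27 Trdc cells, they were 40.9% and 37.0% against 60.9% and 62.2%. For unstimulated SDHA-KO cells of the CD4 class, Trac was found in 75.0% and 85.5% of Trdc cells and in 80.7% and 81.6% of cells without Trdc, which showed no common direction. For the stimulated SDHA-KO CD4 class it was found in 48.7% and 58.8% of 39 and 34 Trdc cells and in 67.5% and 69.1% of cells without Trdc.

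The gamma constant genes went with Trdc. In stimulated SDHA-KO, Tcrg-C1, -C2 or -C4 was detected in 61.9% and 60.8% of CD8-class Trdc cells and in 20.9% and 17.7% of cells without Trdc. Before stimulation the shares were 72.0% and 56.5% against 6.04% and 0.987%, and in stimulated WT 40.9% and 48.1% against 1.47% and 1.99%. For the stimulated SDHA-KO CD4 class they were 30.8% and 26.5% against 2.64% and 1.20%. Beta constant genes were not lower to this extent, since Trbc1 or Trbc2 was detected in 90.0% and 91.8% of the Trdc cells of the stimulated SDHA-KO CD8 class and in 94.6% and 97.4% of the others.

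The coreceptors of the CD8 class were also found less often beside Trdc. Cd8a was detected in 14.8% and 13.3% of Trdc cells of stimulated SDHA-KO against 38.0% and 48.3% of cells without Trdc, and Cd8a or Cd8b1 in 25.2% and 21.5% against 57.2% and 69.4%. Cd4 was rare on either side, in 2.86% and 2.53% against 2.69% and 3.02%. Before stimulation Cd8a was detected in 20% and 19.6% of SDHA-KO Trdc cells against 66.0% and 62.8%. After stimulation, most Trdc cells of the SDHA-KO CD8 class thus had neither a Cd8a nor a Cd8b1 UMI at this depth. This goes against the label of the class, which is used here only as the authors' name for it. In the unstimulated CD4 class Cd4 had a UMI in 85.5% and 87.8% of SDHA-KO and 51.2% and 51.4% of WT cells without Trdc.

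**Figure D3:**
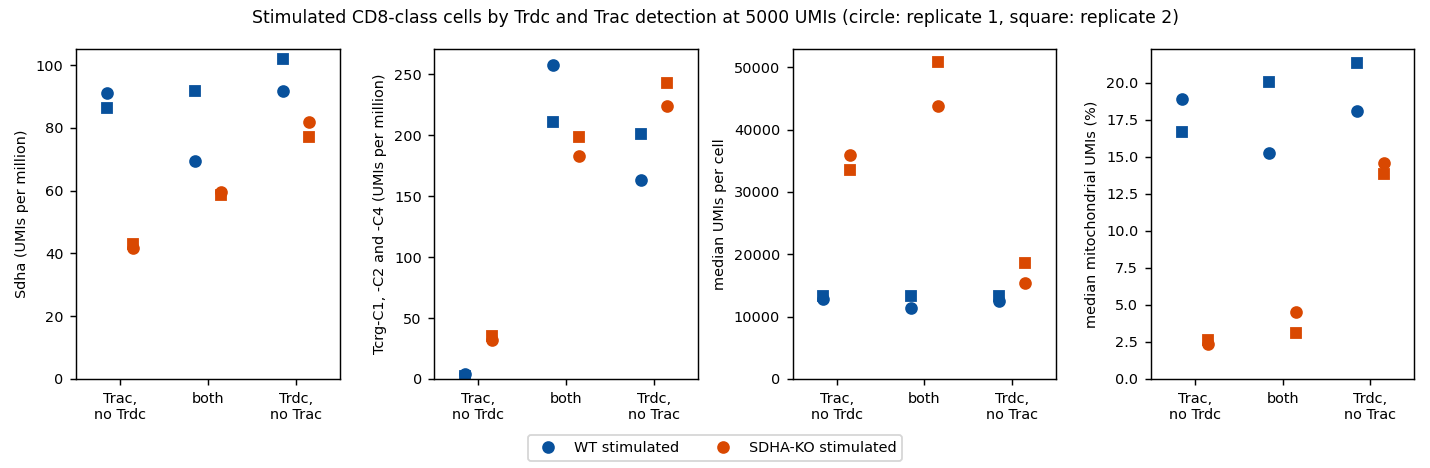
CD8-class cells of the stimulated libraries split by detection of Trdc and Trac at 5000 UMIs. The panels show Sdha and the summed gamma constant genes in CPM, the median UMIs per cell and the median percentage of mitochondrial UMIs, with 1 point per library (circle replicate 1, square replicate 2; blue WT, orange SDHA-KO). The SDHA-KO cells with Trdc and no Trac lie nearer to the WT points in depth, mitochondrial share and Sdha than the SDHA-KO cells with Trac and no Trdc.

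Split by both genes, the stimulated SDHA-KO cells of the CD8 class differed in more than the receptor. The 158 and 116 cells with Trdc and no Trac had 81.8 and 77.0 CPM of Sdha, a median of 15422 and 18537 UMIs and 14.6% and 13.8% mitochondrial UMIs. The 162 and 149 cells with Trac and no Trdc had 41.7 and 43.0 CPM of Sdha, a median of 35934 and 33552 UMIs and 2.39% and 2.66% mitochondrial UMIs. In stimulated WT the cells with Trac and no Trdc had 91.2 and 86.4 CPM of Sdha, 12837 and 13329 UMIs and 18.9% and 16.7% mitochondrial UMIs. SDHA-KO cells with Trdc alone thus lay between the SDHA-KO cells with Trac alone and the WT cells in all 3 measures, nearer to the latter. Depth and mitochondrial share move with the Trdc detection here, and their part in it was not tested. Among cells under 10% mitochondrial UMIs Trdc was still found in 31.0% of the stimulated SDHA-KO CD8 class on average.

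The 52 and 42 cells with both Trdc and Trac were the deepest, with a median of 43790 and 50894 UMIs and 6291 and 6456 genes, although detection had been set to 5000 UMIs. Their Sdha was at 59.6 and 58.7 CPM, between the other classes, and their summed gamma constant genes at 183 and 199 CPM, near the 224 and 243 CPM of the cells with Trdc alone. No doublet caller was run, and the part of doublets among these cells was not tested. The cells with neither gene held 885 CPM of B cell markers in stimulated SDHA-KO replicate 1 and 11.5 CPM in replicate 2, so that B cell transcripts of replicate 1 sat mainly outside the Trdc cells (10.1 and 9.14 CPM in cells with Trdc alone).

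The same order appeared with the number of Trdc UMIs per cell in the stimulated SDHA-KO CD8 class. In replicate 1, Trac was at 195 CPM in 297 cells with 0 Trdc UMIs, 93.9 CPM in 90 cells with 1, 54.1 CPM in 77 cells with 2 and 86.3 CPM in 43 cells with 3 or more. In replicate 2 it was at 241, 92.3, 75.8 and 76.6 CPM in 232, 65, 48 and 45 cells. The step from 0 to 1 was the widest, and levels above 1 UMI did not order the same way in the replicates. Sdha was at 50.1, 71.4, 74.8 and 84.0 CPM in replicate 1 and 45.4, 70.5, 77.6 and 61.4 CPM in replicate 2. Cd8b1 was at 171 and 219 CPM at 0 Trdc UMIs and at 41.5 and 82.0 CPM at 1.

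Per Trdc UMI, the gamma constant genes gave more UMIs in stimulated than in unstimulated CD8-class cells. The ratio of summed Tcrg-C1, Tcrg-C2 and Tcrg-C4 UMIs to Trdc UMIs was 0.463 and 0.248 in unstimulated WT, 0.417 and 0.353 in unstimulated SDHA-KO, 1.27 and 0.893 in stimulated WT and 1.04 and 0.961 in stimulated SDHA-KO. The 4 stimulated values lay above the 4 unstimulated ones, and within a state the genotypes overlapped. The CD4-class ratio ranged from 0.22 to 0.90 with no such separation. Set against Trac, Trdc gave 0.833 and 0.744 UMIs per Trac UMI in the stimulated SDHA-KO CD8 class and 0.038 and 0.0501 in stimulated WT.

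**Figure D4:**
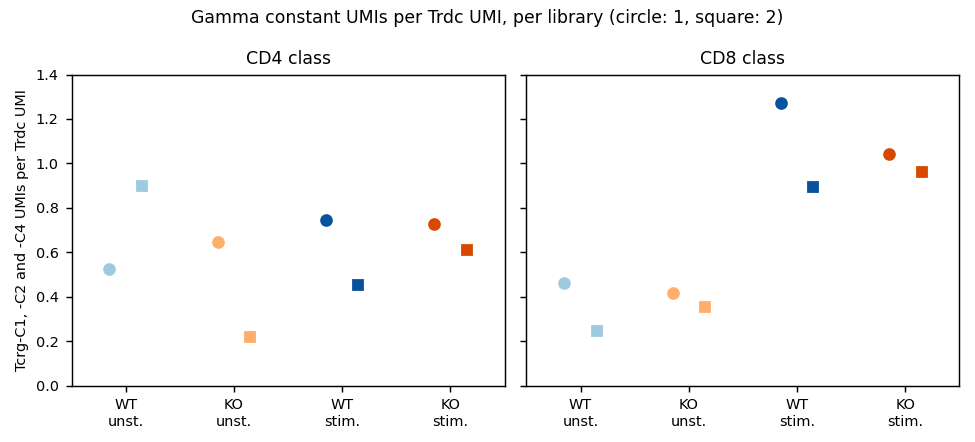
UMIs of Tcrg-C1, Tcrg-C2 and Tcrg-C4 together per Trdc UMI, for each library (circle replicate 1, square replicate 2) and class. In the CD8 class the stimulated libraries lie between 0.893 and 1.27 and the unstimulated libraries between 0.248 and 0.463.

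The makeup of the gamma UMIs was alike in both stimulated SDHA-KO libraries. Within the CD8 class Tcrg-C1, Tcrg-C2 and Tcrg-C4 made up 12.6%, 42.4% and 45.0% of 2435 gamma UMIs in replicate 1 and 12.6%, 44.8% and 42.6% of 1851 in replicate 2. Unstimulated SDHA-KO had 23.3% and 20.4% of Tcrg-C1, on 249 and 167 UMIs. Among the stimulated SDHA-KO CD8 cells with a UMI of the variable gene Trgv2, the makeup was 12.5%, 45.5% and 42.0% in replicate 1 and 12.003%, 46.6% and 41.4% in replicate 2. Among those with Tcrg-V1 it was 13.7%, 42.5% and 43.8% in replicate 1. Trgv2 cells held 2076 of the 2435 gamma UMIs of replicate 1 and Tcrg-V1 cells 650, so these sets share cells. The comparison therefore cannot show whether cells with either variable gene differ in their constant genes. Since Tcrg-C1 and Tcrg-C2 share end sequence, the split between them is less certain than their sum.

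The mean share of Trbc1 among the beta constant UMIs was higher after stimulation in both classes, but neither difference passed adjustment. In the CD4 class the libraries of the 2 states overlapped. A mature alpha-beta T cell uses either constant gene, and Trbc1 made up 34.3% and 29.4% of Trbc1 and Trbc2 UMIs in the CD8 class of unstimulated WT, 37.5% and 36.7% in unstimulated SDHA-KO, 42.6% and 41.2% in stimulated WT and 41.9% and 41.0% in stimulated SDHA-KO. All 4 stimulated libraries lay above all 4 unstimulated ones, although without Trdc cells stimulated SDHA-KO replicate 2 stood at 35.6%, below both unstimulated SDHA-KO libraries (37.2% and 37.7%). Over all cells the stimulated libraries were higher, with a difference of 7.16 points (two-sided exact permutation p = 0.0286 for 4 against 4, the smallest possible, and adjusted p = 0.11 over 4 tests). CD4-class shares of Trbc1 were 33.1% and 34.2%, 35.2% and 37.5%, 38.2% and 37.6%, and 38.2% and 36.8%, and the difference was 2.67 points (exact permutation p = 0.0571, adjusted p = 0.11). Within genotypes the CD8-class difference was 10.0 points in WT and 4.28 points in SDHA-KO, and whether these differ was not tested. SDHA-KO was above WT by 2.43 points in the CD8 class and 1.17 points in the CD4 class, given without p, and the first became −0.06 points without unstimulated WT replicate 2.

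**Figure D5:**
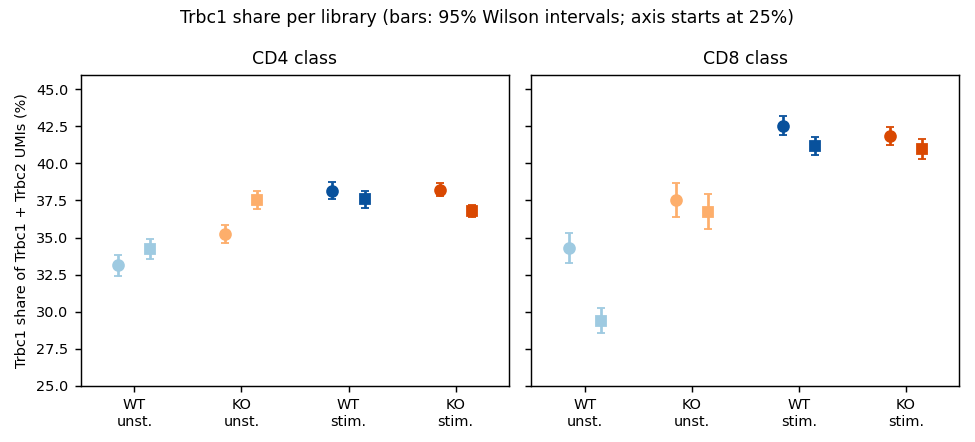
Share of Trbc1 among Trbc1 and Trbc2 UMIs in percent, by group, for the CD4 class (left) and the CD8 class (right). Points are libraries (circle replicate 1, square replicate 2) with 95% Wilson intervals, and the axis starts at 25%. Stimulated CD8-class libraries lie between 41.0% and 42.6%, above the unstimulated ones.

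Cells with nearly all beta UMIs from Trbc1 were more frequent after stimulation. Among CD8-class cells with 10 or more beta UMIs, those with at least 90% Trbc1 made up 2.96% and 2.87% in unstimulated WT, 2.13% and 2.03% in unstimulated SDHA-KO, 12.4% and 12.9% in stimulated WT and 6.52% and 7.47% in stimulated SDHA-KO. Cells with at most 10% Trbc1 made up 28.8% to 46.5%. The rest, 50.6% to 67.7%, held both in between, so most of these cells did not resolve to a single constant gene. The number of beta UMIs per cell also differs between the groups, and its part in these shares was not tested.

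The receptor complex, a list of 6 genes (the CD3 chains Cd3d, Cd3e, Cd3g and Cd247, the Fc receptor gamma chain Fcer1g that can stand in for Cd247, and the pre-T alpha chain Ptcra), moved with the alpha-beta genes on stimulation. In the CD8 class, where 65.7% of all genes were called in WT and 68.2% in SDHA-KO, 5 of 6 fell and Ptcra rose in WT (median log2FC −1.39, against 0.09 over all genes tested), and 4 fell and Ptcra and Fcer1g rose in SDHA-KO (median −0.67, against 0.10). CD4-class cells, with 66.3% and 69.8% of all genes called, had 4 that fell in each genotype (median −0.98 in WT and −0.30 in SDHA-KO, against 0.08 and 0.03), Ptcra rose in both and Fcer1g rose in SDHA-KO. Between genotypes Fcer1g was higher in stimulated SDHA-KO in both classes. Its CD8-class level went from 0.851 and 0.584 CPM in WT to 10.7 and 10.8 CPM in SDHA-KO (log2FC 3.89, SE 0.23), and in the CD4 class from 0.256 and 0.389 to 10.1 and 4.49 CPM (log2FC 4.45, SE 0.44). It was the only one of the 6 called in the stimulated CD8 class, where 50.4% of all genes were called (median −0.05, against −0.01 over all genes). NK cell markers moved with it, since 4 summed markers were at 6.78 and 2.26 CPM in the stimulated SDHA-KO CD8 class and 0.478 and 0.314 CPM in WT, and in the CD4 class at 6.46 and 1.09 CPM in SDHA-KO and 0.158 and 0.0344 CPM in WT. Klra8 was at 0 throughout, and their part in the Fcer1g difference was not tested. In the stimulated CD4 class, with 43.2% of all genes called, Cd247 (log2FC 0.36) and Cd3e (0.24) also rose and Ptcra fell (−1.37; edgeR adjusted p = 0.0046, 0.015 and 0.0274; median of the list 0.21, against 0.00 over all genes). Before stimulation Cd3d fell in the CD8 class (log2FC −0.40, edgeR adjusted p = 0.0359; median −0.22) and 0 of 6 were called in the CD4 class by edgeR (median −0.26), with 3 at an unadjusted p under 0.05.

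Of 8 gamma and delta variable and joining rows listed, 4 passed the filter in the CD8 class. Trgv2 had 3.97 and 4.63 CPM in stimulated WT and 30.5 and 25.7 CPM in stimulated SDHA-KO (log2FC 2.71, SE 0.18), and its log2FC before stimulation was 2.42 (SE 0.31). Trdv1 was higher in SDHA-KO in both states (log2FC 2.26 and 1.49), and Trdv5 had 0 and 1 UMIs in stimulated WT and 16 and 18 UMIs in stimulated SDHA-KO. Before stimulation 2 of 4 rows were called higher and 0 lower (median log2FC 2.34, against 0.00 over all genes, of which 0.283% were called higher), and after it 3 of 4 were called higher (median 2.10, against −0.01, with 26.8% of all genes called higher). Such rows can pass the filter only through the libraries in which they are high, so these counts are a description. Within the CD4 class 0 of 3 tested rows were called between genotypes by edgeR (median 0.19 before and 1.08 after stimulation), with 0 and 1 at an unadjusted p under 0.05. With stimulation Trdv2-2 and Trdv1 fell in both classes of WT, and both were lower in both classes of SDHA-KO (list medians from −2.37 to −1.999, that of the WT CD8 class being −1.81 without a row under the floor). Of 4 rows named Tcrg-V, a set added after the files had been seen, Tcrg-V1 was higher in the SDHA-KO CD8 class in both states (log2FC 2.86 and 2.36) and Tcrg-V4 after stimulation (1.64).

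Among 17 listed genes of gamma-delta T cells outside the receptor, some were called higher in SDHA-KO, except in the unstimulated CD8 class. Their genotype differences are described without p. Genes absent from WT can pass the filter only through the SDHA-KO libraries, so counts of calls are a description. Of 15 tested in the CD4 class, 4 were called higher in unstimulated SDHA-KO and 0 lower, where 0.526% of all genes were called higher (median log2FC 1.87, or 1.41 with genes at 0 in WT at their bound, against 0.03 over all genes). In stimulated SDHA-KO 9 were called higher and 1 lower, where 22.7% of all genes were called higher (median 2.00, against 0.00). The 4 called before stimulation were Il1r1, an interleukin-1 receptor (0 and 3 UMIs in WT, 54 and 60 UMIs in SDHA-KO), the membrane proteins Tmem176a (log2FC 2.49, SE 0.31) and Tmem176b (2.22, SE 0.24), and the chemokine receptor Ccr2 (1.87, SE 0.34). After stimulation Il17a, the cytokine interleukin-17A, was at 0 UMIs in both WT libraries and at 2914 and 554 UMIs in SDHA-KO, at least 1009.7-fold higher in CPM without TMM scaling. This bound pools both SDHA-KO libraries and rests mostly on replicate 1. That replicate also held 34.2 CPM of B cell and 6.46 CPM of NK cell markers in the CD4 class, against 12.5 and 1.09 CPM in replicate 2. The part of such cells was not tested. After Il17a, the next by log2FC were Tmem176a (3.80, SE 0.30) and Il1r1 (3.601, SE 0.63), and Id3, an inhibitor of E proteins, was called lower with a log2FC of −0.63 (SE 0.21). Several of these genes, such as Il17a, Il1r1 and Il23r, are also expressed by alpha-beta T cells of the Th17 type, and in the stimulated SDHA-KO CD4 class the Trdc share was 3.67% and 2.84%.

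In the CD8 class the same list had 12 genes tested and 0 called by edgeR before stimulation, with 1 at an unadjusted p under 0.05 (median log2FC 0.79, or 0.35 with genes at their bound and without those under the floor, against 0.00). After it 7 were called higher and 0 lower, where 26.8% of all genes were called higher (median 1.54, or 1.52 with bounds, against −0.01). The largest differences among those called were those of Il17a, with 0 UMIs in WT and 21 and 58 UMIs in SDHA-KO (at least 34.0-fold higher in CPM without TMM scaling), Tmem176b (log2FC 4.41, SE 0.58) and Ccr2 (3.63, SE 0.64). With stimulation, 5 of 12 fell and 1 rose in WT, where 65.7% of all genes were called (median −1.15, or −1.63 with bounds, against 0.09), and 4 fell and 2 rose in SDHA-KO, where 68.2% were called (median −0.27, against 0.10). Of the CD4 class, 7 of 15 fell and 2 rose in WT, where 66.3% were called (median −1.07, or −1.12 with bounds), and 10 fell and 2 rose in SDHA-KO, where 69.8% were called (median −1.09).

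Across the 16 sums of library by class, the genes whose level was most like that of Trdc were Gm43434 (Pearson r 0.964), Trgv2 (0.904), Tcrg-V1 (0.896), Gpr55 (0.896) and Mta2 (0.887), out of 12935 genes and as a description over sums that share libraries and state. Gm43434 (chr14:54128298-54146287, minus strand) is an antisense gene that overlaps Trdc, and since the strand setting of the counting is not given in the sources used here, its reads and those of Trdc may not be apart. Among the genes most like Trac were Itm2b (r 0.989), Irf9 (0.987), Gimap9 (0.987) and Gimap3 (0.986).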

How the data were processed

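Single-cell RNA libraries of splenic T cells were sequenced from 8 samples, 2 in each of 4 groups, with a median depth per class of 7055 to 30662 UMIs per cell. The authors deposited unnormalized UMI counts for each gene of each cell, the UMI and gene counts of each cell, the percent of mitochondrial UMIs, a log10 ratio of Cd4 over Cd8a UMIs, and their CD class and subset of each cell. Cell Ranger, bcl2fastq and the mm10 build are named in the submitters' processing notes, while versions and the strand setting of the counting are not given in the sources used here. The authors removed cells with too few or too many genes and clusters without Cd3, and the deposited cells reach 5621 genes before and 7998 after stimulation. Column sums equalled the deposited UMI totals in all cells (0 differed).

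UMIs were summed per library and class and fitted by edgeR quasi-likelihood (edgeR 4.0.16 in R 4.3.3, TMM scaling, filterByExpr with a minimum count of 10 and a total of 15, 4 groups in 1 fit), with Benjamini-Hochberg adjustment over all genes tested and a threshold of 0.05. DESeq2 1.42.0 was an alternative. Cell shares were taken at 5000 UMIs per cell (seed 20) with Python 3.11.15, numpy 2.4.6, pandas 2.3.3 and scipy 1.17.1, with 95% Wilson intervals; intervals and floors (3 UMIs over a group) cover counting error only. Figures used matplotlib 3.10.9. Cells are not replicates, so groups were compared over libraries. No doublet caller was run.

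The members and lists were chosen with earlier results of these data known, and the Tcrg-V rows were added after the files had been seen. The genes named are all 8 members, the 3 largest rises and falls among the calls of each list, and the 5 genes most like Trdc and Trac, of which 1 is not reported here. Alternatives were other scaling, no low-count filter, DESeq2, a replicate block, cells without Trdc or under 10% mitochondrial UMIs, strict classes by coreceptor UMIs, fits of only the libraries compared, other depths and leaving out each library. Same-numbered libraries did not deviate together (correlations from −0.23 to 0.0394), and the main fits did not pair them by number. With 2 libraries per group, these correlations cannot exclude that same-numbered libraries shared a mouse or batch.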

Additional observations from a re-analysis of the deposited data

Results flagged for a closer look

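In 6 combinations of member and class, with Trbc1 and Trbc2 counted in both classes, the SDHA-KO effect differed between the unstimulated and stimulated states. The fit called 21.4% of all genes for this difference in the CD4 class and 23.8% in the CD8 class. The difference, stimulated minus unstimulated on the log2 scale, was 0.46 for Trac, 0.81 for Trbc1 and 1.00 for Trbc2 in the CD4 class, and 1.12 for Trdc, 0.43 for Trbc1 and 0.80 for Trbc2 in the CD8 class. These values contain the genotype differences that were known when the genes were chosen, so they are printed without p. Groups of 2 libraries are too small to look for single outlying libraries.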

How the results depend on the processing

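Of 309 values under other settings, over 21 results, 279 kept their direction and stayed within the limits set. The number of members called between unstimulated genotypes depended most on the setting. Over all T cells it was 3 (of 267 genes called), and 5 with DESeq2 (472 genes) or with only the 4 libraries compared (674 genes), and 0 in cells without a Trdc UMI (362 genes). In the CD4 class it was 1 (157 genes), and 2 without the low-count filter (643), with DESeq2 (272) or with only the 4 libraries compared (445), and 0 in cells without a Trdc UMI (162) or in strict classes (116). In the CD8 class it was 4 (124 genes), and 0 in cells without a Trdc UMI (208) and 1 in strict classes (141), with 225 genes called without the low-count filter, 261 with DESeq2 and 338 with only the 4 libraries compared. For the difference between states over all T cells it was 5 (4116 genes), and 3 under 10% mitochondrial UMIs (2232). Genes called for that difference under 10% mitochondrial UMIs were 1951 in place of 3053 in the CD4 class and 1397 in place of 3111 in the CD8 class, and DESeq2 called 4045 in place of 6160 between stimulated genotypes in the CD4 class. Between states in the WT CD8 class the number of members called was 5 (8606 genes), and 3 in cells without a Trdc UMI (8018 genes). Leaving out cells with Trdc removes the transcripts counted, and the cause of the other moves was not tested.

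The Trdc share of the stimulated SDHA-KO CD8 class, 41.0% at 5000 UMIs, was 31.4% at 3000 UMIs, 45.8% at 10000 UMIs, 57.6% unthinned and 31.0% among cells under 10% mitochondrial UMIs. The Trac share of its Trdc cells, 25.7%, was 14.9%, 40.5%, 62.2% and 32.9% in the same order, and 21.7% with at least 2 Trdc UMIs, so depth limits these shares. Leaving out 1 library gave ranges of 40.5% to 41.4% and 24.8% to 26.6%.

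With 1 library left out, 1 group keeps a single library. The number of members called then moves with the number of all genes called, so such counts are not listed here. The Trbc1 share differed between states by 2.04 to 3.51 points in the CD4 class and 5.46 to 8.18 points in the CD8 class, and between genotypes by 0.286 to 1.97 points and −0.0613 to 4.33 points, the last turning sign without unstimulated WT replicate 2.

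With the replicate number as a block, the members called between states in WT were 8 in place of 7 in the CD4 class and 4 in place of 5 in the CD8 class. Over all T cells the block gave 4 in place of 3 between unstimulated genotypes and 6 in place of 5 for the difference. The block changed no other count of members called. The Trbc1 share differences, also among the 19 results, stay the same by construction when libraries are paired by number. The block therefore cannot test these differences, and their p-values given above are without a block. Crossing the pairs in the 4 stimulated libraries, chosen after seeing the data, gave 7479 genes against 6708 with same-numbered pairs and 7264 without a block.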
